A study of Mus musculus with 5 samples.

Results

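The barcodes described here are droplets of one single-cell library that carried 650 to 2109 unique molecular identifiers (UMIs, one per captured RNA molecule), too few to stand among the called cells. They were chosen by UMI number alone, and there were 1099 of them among 519670 barcodes with at least 1 UMI in that library and 537842 in all libraries. The library was made from bone marrow of wild type C57BL/6 mice, healthy and without any named treatment, in which the LSK gate (Lin-SCA1+KIT+) had been sorted by flow cytometry. The series also holds KIT+SCA1- progenitors of the same strain and genotype, sorted as CMP (CD34+CD16/32-), GMP (CD34+CD16/32+) and MEP (CD34-CD16/32-), and all were profiled with a droplet 3' kit. The antibodies behind the lineage gate, the age of the animals and their number were not stated in the labels. The low-UMI barcodes were set against 10883 barcodes with 2110 UMIs or more (called cells, a range fixed by the 10882 LSK cells the study states and by 3 barcodes tied at 2110 UMIs) and against 426145 barcodes with 1 to 99 UMIs (free RNA).

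In droplet methods each bead tags whatever RNA shares its droplet. A droplet without a cell still picks up free RNA that leaked from cells into the suspension, and a droplet with a small, damaged or RNA-poor cell gives fewer UMIs than one with a large intact cell. The LSK gate holds hematopoietic stem cells and multipotent progenitors, whereas mature neutrophils, red cells and lymphocytes carry the surface antigens that lineage antibodies recognise. Mature blood cells of these kinds are known for little RNA or for RNA dominated by a few transcripts, such as the globins of red cells and the calprotectin subunits S100a8 and S100a9 of neutrophils.

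The low-UMI barcodes held 1220839 UMIs in all, or 1.25% of the LSK library, against 75200611 UMIs in called cells and 1176057 in free RNA. Medians were 871 UMIs and 545 genes per low-UMI barcode, against 5987 UMIs and 2183 genes per called cell and 2 UMIs per free RNA barcode. These differences follow from the rule. Between free RNA and the low-UMI barcodes lay 81543 barcodes of 100 to under 650 UMIs, with 19726034 UMIs and a median of 226. All values come from 1 library without replicates, so no test was made, and the 95% intervals given are exact ones that cover counting error only. Of the low-UMI barcodes, 31 (2.82%) had a barcode sequence that also occurred in another matrix of the series, against 275 (2.53%) of called cells.

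The number of barcodes per UMI step had a low point inside the chosen range. In steps of equal width on a log scale, 355 barcodes had 631 to 707 UMIs, 44 had 1122 to 1258 UMIs and 160 had 1995 to 2238 UMIs. The low-UMI range thus held both sides of this low point, with 641 barcodes under 1000 UMIs and 458 at 1000 UMIs or more.

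**Figure D1:**
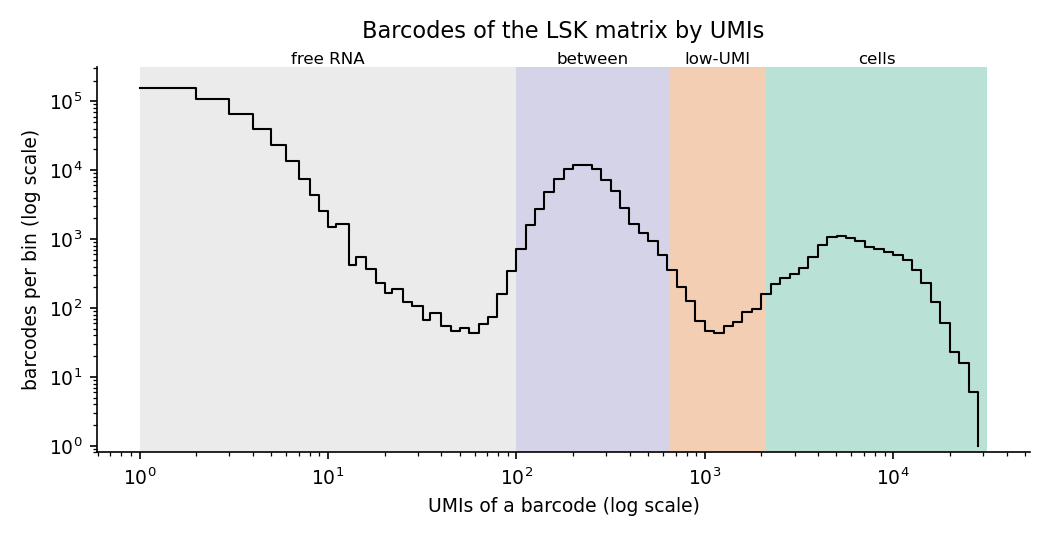
Number of LSK barcodes (vertical, log scale) by UMIs per barcode (horizontal, log scale), with the limits of the low-UMI range marked. The count falls to 44 barcodes at 1122 to 1258 UMIs, inside the range, and climbs again toward the called cells.

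Values just inside and just outside the limits are given for a few genes. Hlf, a stem cell transcription factor, had 303 CPM (counts per 1000000 UMIs of the summed profile) in the 461 barcodes of 650 to 799 UMIs and 245 CPM in the 1657 barcodes of 500 to under 650 UMIs. Malat1, an abundant nuclear RNA, had 23083 CPM in the barcodes of 650 to 799 UMIs and 22208 CPM in those of 500 to under 650 UMIs. Mmrn1 (multimerin 1) had 61.3 CPM (37.4 to 94.6) at 650 to 799 UMIs and 28.1 CPM (18.4 to 41.2) at 500 to under 650 UMIs, and the share of barcodes with more than 10% mitochondrial UMIs was 5.64% at 650 to 799 UMIs and 1.93% at 500 to under 650 UMIs. At the upper limit Hlf had 540.2 CPM in the 276 barcodes of 1500 to 2109 UMIs and 478 CPM in the 745 called cells of 2110 to under 3000 UMIs, and Malat1 had 27688 CPM in the barcodes of 1500 to 2109 UMIs and 23515 CPM in those called cells.

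In the summed low-UMI profile, 3 lineages stood out from free RNA: red cells, neutrophils, and T and NK cells. A gene was called higher where it reached 50 CPM and 3 UMIs on the higher side and a ratio of 2 or more. By that rule 56 of 3145 genes (1.78%) were higher in low-UMI barcodes than in free RNA and 18 (0.572%) were lower. Against called cells 14 of 3111 genes (0.45%) were higher and 2 (0.0643%) were lower. The 12 highest genes over free RNA were the globins Hba-a2, Hba-a1, Hbb-bs and Hbb-bt, the neutrophil genes S100a8, S100a9, Camp and Ngp, and Ccl5, Ms4a4b, Ly6c2 and Id2, and the same 12 were the highest over called cells. The median log2 ratio over the genes at 50 CPM was 0.050 against free RNA (3145 genes) and 0.0019 against called cells (3111 genes), and over genes at a mean of 1 CPM or more it was 0.098 against free RNA (11782 genes) and 0.11 against called cells (11829 genes).

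Hbb-bs, an adult beta-globin of this strain (chromosome 7, 103826534 to 103828096, minus strand, GRCm38), had 411 UMIs in low-UMI barcodes, 12 in free RNA and 309 in called cells. That is 337 CPM (305 to 371) in low-UMI barcodes, against 10.2 CPM in free RNA and 4.11 CPM in called cells. The log2 ratio was 5.04 (4.22 to 6.01) over free RNA and 6.36 (6.14 to 6.57) over called cells. The alpha-globins stood alike, with 237 CPM for Hba-a1 in low-UMI barcodes against 5.10 CPM in free RNA and 2.01 CPM in called cells, and 165 CPM for Hba-a2 against 1.70 CPM in free RNA and 0.918 CPM in called cells. Hba-a1 and Hba-a2, side by side on chromosome 11 (32283511 to 32284465 and 32296489 to 32297298, plus strand), are near-identical copies, so the split of UMIs between them is uncertain. Hbb-bt, the other adult beta-globin of this strain, had 145 CPM in low-UMI barcodes against 37.4 CPM in free RNA and 42.0 CPM in called cells.

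Nearly all of this globin excess lay in a single barcode, called the red cell barcode here for its share of listed genes. This barcode of 1358 UMIs held 398 Hbb-bs, 281 Hba-a1, 197 Hba-a2 and 129 Hbb-bt UMIs, and 1009 of its UMIs (74.3%) came from the erythroblast and red cell list. It also held 1 UMI each of Alas2, the first enzyme of heme synthesis in erythroid cells, and Bpgm, the enzyme that makes the red cell's 2,3-bisphosphoglycerate. It had 274 genes, and no UMI of Ly6a (which encodes SCA1), Kit or Cd34. Its barcode sequence was among the 31 that also occurred in another matrix of the series. With those 31 left out, the log2 ratio of Hbb-bt over called cells fell from 1.79 to -0.11. Which other matrix held this sequence was not determined. The next barcode by this list had 5 such UMIs of 701, and 968 of the 1099 barcodes (88.1%) had none. Hbb-bs itself was found in 10 barcodes, with 3 UMIs in the second highest. The ratio of Hbb-bs to Hbb-bt UMIs was 3.09 in the globin-rich barcode, against 0.271 in the other low-UMI barcodes, 0.467 in barcodes of 100 to under 650 UMIs, 0.273 in free RNA and 0.0977 in called cells.

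S100a8, which encodes a calcium-binding protein that fills neutrophil cytoplasm (chromosome 3, 90668978 to 90670035, plus strand, GRCm38), had 605 UMIs in low-UMI barcodes, 37 in free RNA and 1732 in called cells. Its level was 496 CPM (457 to 537) in low-UMI barcodes, against 31.5 CPM in free RNA and 23.0 CPM in called cells. The log2 ratio was 3.98 (3.50 to 4.50) over free RNA and 4.43 (4.29 to 4.56) over called cells. Its partner S100a9 (chromosome 3, 90692632 to 90695721, minus strand) had 215 CPM in low-UMI barcodes against 15.3 CPM in free RNA and 11.1 CPM in called cells. Of the secondary granule genes, Camp (cathelicidin) had 90.1 CPM in low-UMI barcodes against 5.10 CPM in free RNA and 5.11 CPM in called cells, and Ngp (neutrophilic granule protein) had 70.4 CPM against 5.10 CPM in free RNA and 2.17 CPM in called cells.

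The neutrophil excess lay in 2 barcodes, called neutrophil barcodes here in the same way. One of 1143 UMIs held 501 UMIs (43.8%) of the neutrophil list, with 271 of S100a8, 114 of S100a9, 47 of Camp and 34 of Ngp. The other, of 1196 UMIs, held 585 (48.9%), with 305 of S100a8, 130 of S100a9, 61 of Camp and 46 of Ngp. Both also had UMIs of Chil3, Lcn2 (lipocalin 2) and Lyz2 (lysozyme), while Mpo and Elane, granule genes of earlier granulocyte stages, had 0 UMIs in both. Neither held a UMI of Ly6a, Kit or Cd34. The next barcode by the neutrophil list had 8 such UMIs of 716, and 757 of the 1099 barcodes (68.9%) had none. S100a8 was found in 29 barcodes, and 95.2% of its UMIs were in these 2. Hbb-bs and S100a8 had been given as markers of the low-UMI barcodes, and neither was present in most of them.

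**Figure D2:**
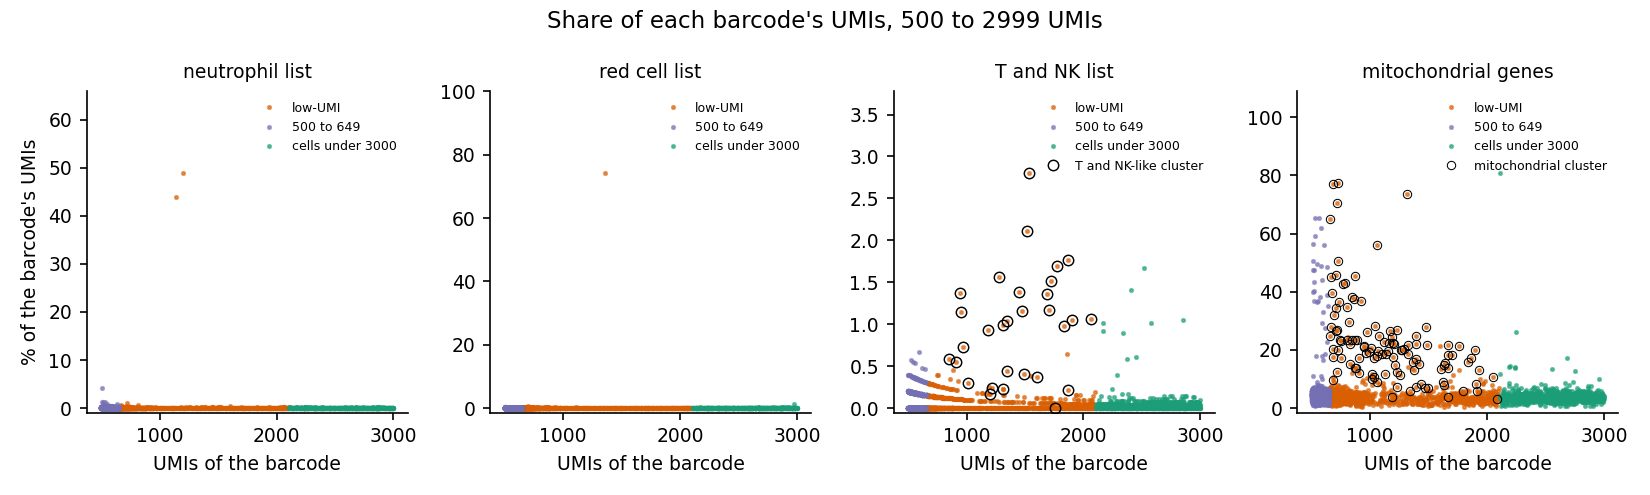
Percent of a barcode's UMIs from the neutrophil, the erythroblast and red cell, and the T and NK lists and from mitochondrial genes (vertical) by its UMIs (horizontal), for low-UMI barcodes, barcodes of 500 to under 650 UMIs and called cells under 3000 UMIs. The 2 neutrophil barcodes stand at 43.8% and 48.9% and the red cell barcode at 74.3%, with the next low-UMI barcodes at 1.12% and 0.713%, and circles mark the T and NK-like cluster, which reaches 2.80%, and the mitochondrial cluster.

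Such barcodes were rare in every range from 100 UMIs. Among barcodes of 100 to under 650 UMIs, 2 of 81543 had 10% or more of their UMIs in the neutrophil list and 1 in the red cell list, and among called cells 1 of 10883 did for the neutrophil list and 0 for the red cell list, which allows a share of up to 0.0339% of called cells by the exact interval. In low-UMI barcodes the shares were 2 of 1099 (0.182%, exact interval 0.0220 to 0.656) and 1 of 1099 (0.0910%, 0.0023 to 0.506). The lineage-negative gate is meant to leave out both cell types.

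Ccl5, a chemokine of T and NK cells (chromosome 11, 83525778 to 83530518, minus strand, GRCm38), had 262 UMIs in low-UMI barcodes, 16 in free RNA and 1278 in called cells. Its level was 215 CPM (189 to 242) in low-UMI barcodes, against 13.6 CPM in free RNA and 17.0 CPM in called cells, a log2 ratio of 3.98 (3.25 to 4.81) over free RNA and 3.66 (3.46 to 3.85) over called cells. Ms4a4b, a T cell surface protein, had 58.2 CPM against 3.40 CPM in free RNA and 3.84 CPM in called cells, and Id2, a transcriptional regulator that innate lymphocytes depend on, had 93.4 CPM against 14.5 CPM in free RNA and 19.9 CPM in called cells. Ccl5 was found in 39 barcodes, with at most 29 of its 262 UMIs in any one, Ms4a4b in 28 barcodes with at most 14, and Id2 in 56 with at most 10.

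Most of these UMIs fell in 1 cluster of 30 barcodes (2.73% of the low-UMI barcodes, exact interval 1.85 to 3.87) that appeared when the low-UMI barcodes were clustered by themselves. Its leading genes were Xcl1, Cd3g, Ms4a4b, Ccl5, Cd3d, Cxcr6, Txk, Gimap4, Klrk1 and Cd2, and it is called T and NK-like from 8 listed markers at 10 CPM or more and 2-fold over the other low-UMI barcodes. These genes defined the cluster and are given as a description. Cd3d and Cd3g are among them, so the counts of Cd3 genes inside and outside the cluster are a description too. The cluster held 240 of the 262 Ccl5 UMIs (91.6%), 66 of the 71 Ms4a4b UMIs, 82 of the 114 Id2 UMIs and 49 of the 68 Ly6c2 UMIs. A UMI of Cd3d, Cd3e or Cd3g, which encode chains of the T cell receptor complex, was present in 20 of its 30 barcodes, at a median of 1459.5 UMIs per barcode, and in 1 of the 1069 other low-UMI barcodes, at a median of 860 UMIs.

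Within the cluster the summed profile joined T and NK genes. Cd3g had 1068 CPM in the cluster, against 0.279 CPM in called cells, and Cd3d had 697 CPM against 0.412 CPM in called cells. Xcl1 (lymphotactin, made by NK cells and activated T cells) had 1184 CPM against 0.386 CPM in called cells, and Ccl5 had 5573 CPM against 17.0 CPM in called cells. The NK receptor genes Klrk1, Klrb1c and Ncr1 had 534, 372 and 348 CPM in the cluster. Cd4, Cd8a, Cd8b1, Gzma, Eomes and Mpo had 0 UMIs among its 43066. Of the gate's antigens, Ly6a had 418 CPM (248 to 661) in the cluster against 78.2 CPM in called cells, and Kit had 23.2 CPM (0.588 to 129) against 100.5 CPM in called cells. Mecom, a stem cell transcription factor, had 23.2 CPM against 96.0 CPM in called cells.

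Barcodes with at least 2 UMIs of the CD3 genes were not spread evenly over the UMI ranges. They numbered 1 of 81543 at 100 to under 650 UMIs, 0 of 461 at 650 to 799, 1 of 180 at 800 to under 1000, 8 of 182 at 1000 to 1499, 9 of 276 at 1500 to 2109 and 5 of 745 at 2110 to under 3000. Over all, 18 of 1099 low-UMI barcodes (1.64%, exact interval 0.974 to 2.58) held them, against 8 of 10883 called cells (0.0735%, 0.0317 to 0.145). Thinned to 500 UMIs each, with no barcode left out, 15 of 1099 low-UMI barcodes (1.36%, 0.766 to 2.24) had a UMI of a CD3 gene, against 8 of 10883 called cells (0.0735%, 0.0317 to 0.145). In the summed profiles Cd3g had 38.5 CPM in low-UMI barcodes, against 1.70 CPM in free RNA and 0.279 CPM in called cells.

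With the 2 neutrophil barcodes, the red cell barcode and the 30 barcodes of the T and NK-like cluster left out, 1066 barcodes and 1174076 UMIs remained, and 0 of the 12 leading genes met the call rule over free RNA. Hbb-bs then had 13 UMIs and a log2 ratio of 0.12 (-1.13 to 1.38) over free RNA, and S100a8 had 27 UMIs and -0.45 (-1.22 to 0.30). Ccl5 had 21 UMIs and 0.39 (-0.61 to 1.43). The barcodes left out had been set apart by the neutrophil and red cell lists and by a cluster led by T and NK genes. A fall in the 12 leading genes was largely fixed by that choice, and the values show only where the excess lay. Ly6c2, a surface antigen of monocytes and some lymphocytes, kept 19 UMIs and a log2 ratio of 2.25 (0.66 to 4.27) at 16.2 CPM, below the 50 CPM minimum, and 12 of these 19 UMIs were in a single barcode of 1598 UMIs. Genes called higher than free RNA then numbered 48 of 3155 (1.52%), and genes called higher than called cells numbered 3 of 3118 (0.0962%), namely Mmrn1, mt-Nd6 and mt-Nd1. Lower genes then numbered 17 (0.539%) against free RNA and 1 (0.0321%) against called cells. With only the neutrophil and red cell barcodes left out, 50 genes (1.58%) were higher and 18 (0.57%) lower than in free RNA, and 6 (0.192%) were higher and 2 (0.0642%) lower than in called cells.

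**Figure D3:**
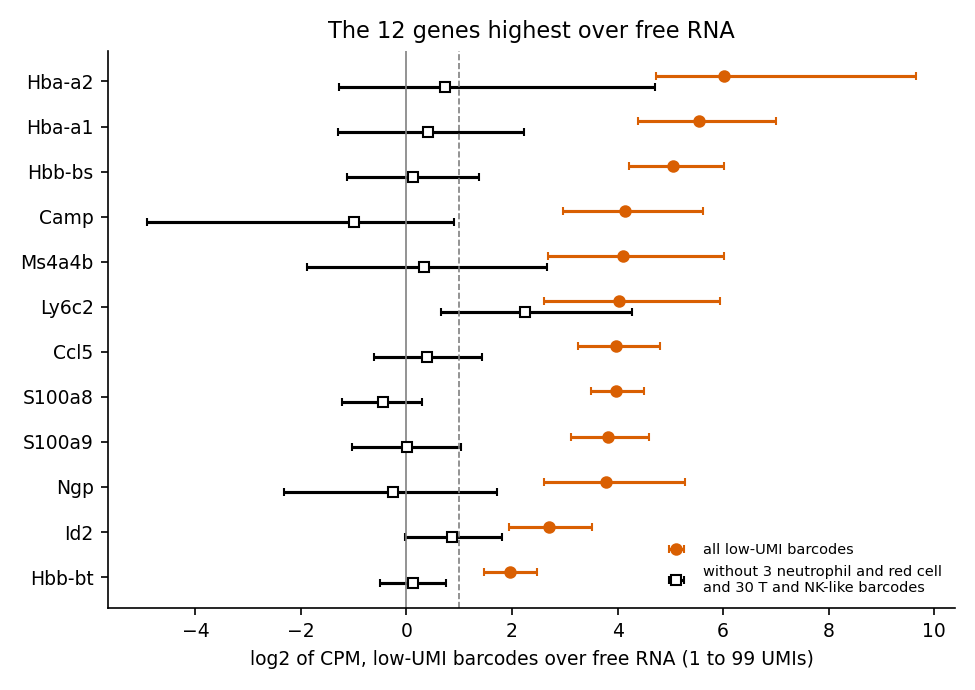
Log2 ratio of the 12 leading genes in low-UMI barcodes over free RNA, with all 1099 barcodes and without the 33 barcodes described above. Bars are 95% intervals for counting error. Hbb-bs lies at 5.04 over free RNA with all barcodes and at 0.12 without the 33.

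The lists of mature lineages were also summed. Of all genes at 50 CPM, 56 of 3145 (1.78%) were called higher than free RNA. At that minimum the neutrophil list had 5 genes, the erythroblast and red cell list 4 and the T and NK list 2. In the neutrophil list 4 of 15 genes were called higher than free RNA, and its summed level was 1255 CPM in low-UMI barcodes against 348 CPM in free RNA and 319 CPM in called cells. Without the 33 barcodes it was 373 CPM. In the erythroblast and red cell list 4 of 15 were called higher, with 955 CPM against 122 CPM in free RNA and 123 CPM in called cells, and 132 CPM without the 33 barcodes. Slc4a1, Sptb and Epb42, genes of the red cell membrane skeleton and anion exchange, had 0 UMIs. In the T and NK list 1 of 9 measured genes (Ccl5) was called higher, with 681 CPM against 388 CPM in free RNA and 337 CPM in called cells, and 336 CPM without the 33 barcodes. Among members at a mean of 1 CPM or more, the median log2 ratio over free RNA was 2.999 for 10 genes of the neutrophil list, 0.60 for 10 of the red cell list, 1.95 for 8 of the T and NK list, 0.95 for 9 of the monocyte list and 0.87 for 10 of the macrophage list, against 0.098 for all 11782 such genes. Nkg7 stands in both the T and NK list and the primary granule list, and had 329 CPM in low-UMI barcodes against 339 CPM in free RNA and 288 CPM in called cells.

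In the other mature lineages 1 gene was called in all. The monocyte list had 238 CPM in low-UMI barcodes against 116 CPM in free RNA and 137 CPM in called cells, with Ly6c2 as its 1 gene of 10 called higher. No gene was called in the macrophage (331 CPM against 218 CPM in free RNA and 242 CPM in called cells), dendritic, megakaryocyte and platelet, basophil and mast, B cell, plasma cell or eosinophil lists. Against free RNA, 1 gene of the macrophage, 4 of the dendritic, 3 of the megakaryocyte and platelet and 1 of the plasma cell list reached 50 CPM. No gene of the basophil and mast, B cell or eosinophil lists did, so these lists could give no call. The B cell list had 59.8 CPM against 57.8 CPM in free RNA and 55.1 CPM in called cells, with Ms4a1 and Pax5 at 0 UMIs. The eosinophil list had 4 UMIs in all. Primary granule genes, the marks of granulocyte-committed progenitors, had 959 CPM in low-UMI barcodes against 1135 CPM in free RNA and 1047 CPM in called cells. Early erythroid genes had 1443 CPM in low-UMI barcodes against 1173 CPM in free RNA and 1261 CPM in called cells, and lymphoid-primed genes had 751 CPM against 685 CPM in free RNA and 726 CPM in called cells. No gene of these 3 lists was called in either comparison. Against free RNA, 4 genes of the primary granule, 1 of the early erythroid and 4 of the lymphoid-primed list reached 50 CPM.

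Single barcodes with several genes of 1 lineage occurred for other lineages as well. A barcode of 767 UMIs had 28 UMIs of the macrophage list (3.65%), with 8 of C1qb, 6 of C1qa and 2 of C1qc, the complement C1q chains made by tissue macrophages, and 5 of Hmox1, the heme-degrading oxygenase. The leading barcode of the monocyte list had 1598 UMIs, of which 18 (1.13%) were listed, with 12 of Ly6c2, 4 of Ly86 and 2 of Csf1r, the receptor for macrophage colony-stimulating factor, and 21.4% of its UMIs were mitochondrial. A barcode of 1193 UMIs had 7 UMIs of Elane and 4 of Ctsg, both neutrophil serine proteases. A barcode of 1628 UMIs had 10 UMIs of Car2 and 7 of Car1, the carbonic anhydrases, and 2 of Klf1, the erythroid transcription factor. A barcode of 1031 UMIs had 12 UMIs of the MHC class II genes Cd74, H2-Ab1 and H2-Aa, and a barcode of 1522 UMIs had 5 UMIs of Pf4, platelet factor 4.

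Beyond the mature lineages, 2 of the 56 genes higher than free RNA were in the stem and multipotent list. After the 12 highest genes, the largest log2 ratios were those of Nsd1 (1.46), Igf1r (1.37), Ktn1 (1.36) and Cul5 (1.34), which are not in it. Hlf had 408 CPM (373 to 445) in low-UMI barcodes against 191 CPM in free RNA and 269 CPM in called cells, a log2 ratio of 1.09 (0.86 to 1.33) over free RNA. Mllt3, a regulator of stem cell maintenance, had 87.6 CPM against 36.6 CPM in free RNA and 45.2 CPM in called cells. Of the 12 genes in the stem and multipotent list 8 reached 50 CPM. Hlf and Mllt3 were the 2 of these called over free RNA, beside 1.78% of all 3145 genes. Both calls remained without the 33 barcodes. With TMM or median-of-ratios factors, which moved all log2 ratios by -0.15 or -0.12, Mllt3 stayed above 2-fold and Hlf did not. In barcodes of 100 to under 650 UMIs Hlf had 274 CPM and Mllt3 49.0 CPM, and over these neither gene reached 2-fold. Mecom had 169 CPM against 90.1 CPM in free RNA and 96.0 CPM in called cells, short of 2-fold. The list as a whole had 1460 CPM in low-UMI barcodes against 933 CPM in free RNA and 1041 CPM in called cells, and none of its genes was called against called cells. Its median log2 ratio over free RNA was 0.53 over 12 genes.

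The gate's own antigens did not set the low-UMI barcodes apart by the call rule. Ly6a had 130.2 CPM in low-UMI barcodes against 80.8 CPM in free RNA and 78.2 CPM in called cells, and Kit had 138 CPM against 87.6 CPM in free RNA and 100.5 CPM in called cells. Cd34, carried by multipotent and later progenitors, had 383 CPM against 409.8 CPM in free RNA and 399 CPM in called cells.

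In the list of nuclear-retained RNAs, 3 of 6 measured members reached 50 CPM. Of these, 2 were called higher than free RNA, beside 56 of all 3145 genes (1.78%). Malat1 had 27431 CPM in low-UMI barcodes, against 13109.9 CPM in free RNA and 15999 CPM in called cells, a log2 ratio of 1.07 (1.04 to 1.09) over free RNA and 0.78 (0.76 to 0.79) over called cells. Kcnq1ot1, a long noncoding RNA that stays in the nucleus, had 327 CPM against 159 CPM in free RNA and 238 CPM in called cells. Its log2 ratio over free RNA was 1.04 (0.79 to 1.30). Both calls were near the 2-fold limit. Scaling by TMM or median-of-ratios factors moved all log2 ratios over free RNA by -0.15 or -0.12, which takes both genes under that limit. Neat1, the RNA of nuclear paraspeckles, was not called and had 165 CPM in low-UMI barcodes against 254 CPM in free RNA and 155 CPM in called cells, a log2 ratio of -0.62 (-0.88 to -0.36) over free RNA. Xist and Snhg11 had 0 UMIs in low-UMI barcodes. In barcodes of 100 to under 650 UMIs Malat1 had 22104 CPM, so most of its excess over the 1 to 99 UMI barcodes was already present there.

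The genes called depended on which barcodes stood for free RNA. Of the UMIs in free RNA, 1033100 of 1176057 came from barcodes with 1 to 9 UMIs. Rer1, a protein of the early secretory pathway, had 130.2 CPM in low-UMI barcodes, against 3452 CPM in free RNA, 157 CPM in barcodes of 100 to under 650 UMIs and 144 CPM in called cells, the lowest ratio of the 18 genes called lower. Psmb7, a proteasome subunit, and Faf1, a FAS-associated factor, were called lower than free RNA too, with 68.0 CPM and 18.02 CPM in low-UMI barcodes against 574 CPM and 196 CPM in free RNA and 80.7 CPM and 25.7 CPM in barcodes of 100 to under 650 UMIs. Against barcodes of 100 to under 650 UMIs 20 of 3168 genes (0.631%) were higher in low-UMI barcodes and 3 (0.0947%) were lower, namely Uhrf1, Tk1 and Cdk1, genes of DNA replication and division. Of the 56 genes higher than free RNA, 14 were also higher than the barcodes of 100 to under 650 UMIs.

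The 2 genes lower than called cells were histones made in S phase. Hist1h2ap had 803 CPM (753 to 855) in low-UMI barcodes, against 1891 CPM in free RNA and 2383 CPM in called cells, and Hist1h1b had 33.6 CPM against 46.8 CPM in free RNA and 68.9 CPM in called cells. Among called cells Hist1h2ap had 568 CPM at 2110 to under 3000 UMIs and 691 CPM at 3000 to under 5000, both under the low-UMI level. It had 1378 CPM at 5000 to under 10000 UMIs and 4888 CPM from 10000 UMIs. The S phase list had 1238 CPM against 1507 CPM in free RNA and 1665 CPM in called cells, with only Tk1 called lower than free RNA, and the G2 and mitosis list had 1611 CPM against 1924 CPM in free RNA and 2347 CPM in called cells, with no gene called. The summed level of mitosis genes was lower in the upper part of the low-UMI range: it was 2122 CPM at 650 to 799 UMIs, 2093 CPM at 800 to under 1000, 1773 CPM at 1000 to 1499, 1059 CPM at 1500 to 2109 and 794 CPM at 2110 to under 3000. The stem and multipotent list ran the other way over the same ranges, with 1179, 1245, 1494, 1694 and 1687 CPM.

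**Figure D4:**
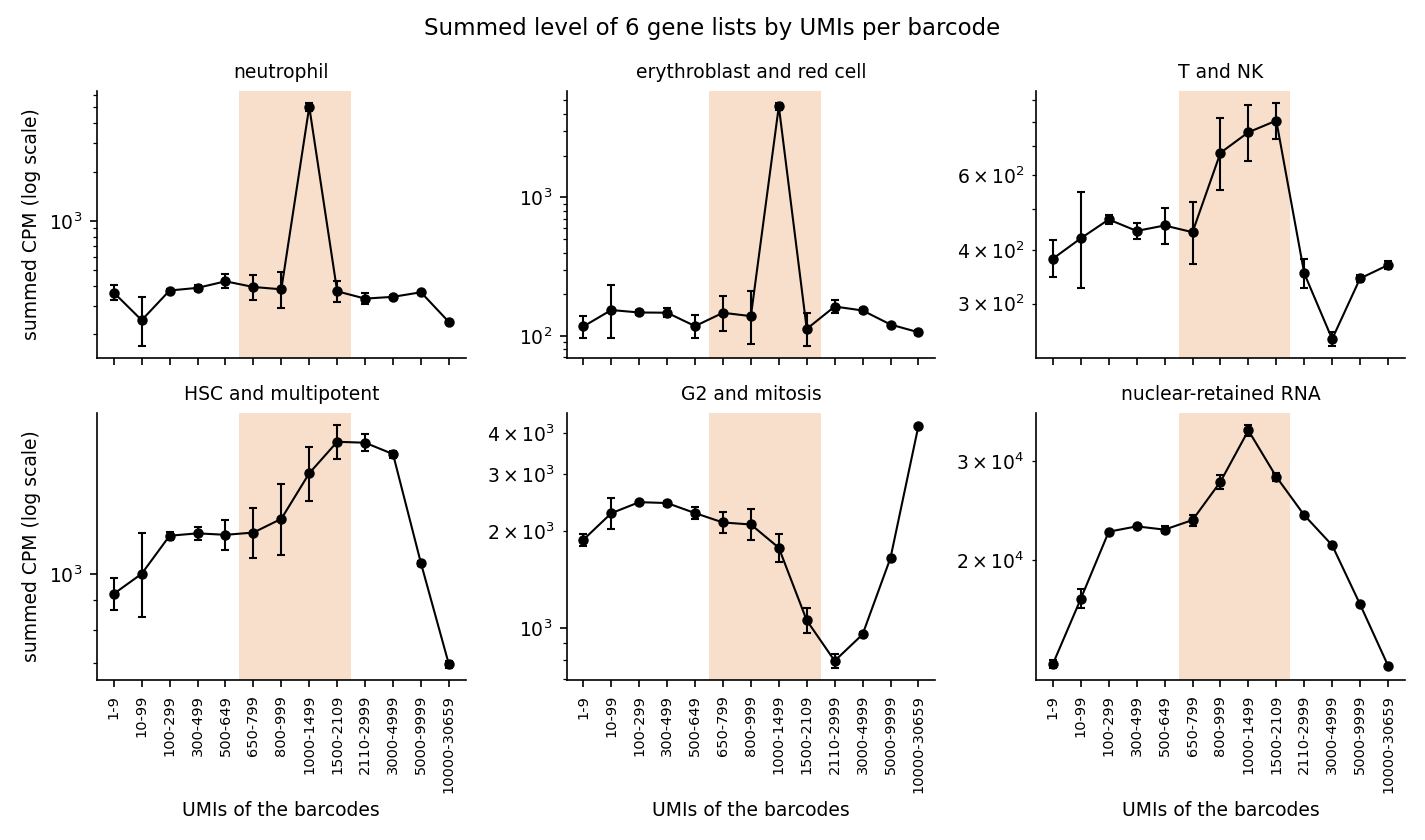
Summed CPM of gene lists (vertical, log scale) by UMI range (horizontal, low to high); bars are 95% intervals for counting error. The neutrophil and red cell lists reach 5054 and 4538 CPM at 1000 to 1499 UMIs only, where the 3 barcodes lie, and the other low-UMI ranges stay between 369 and 392 CPM and between 112 and 147 CPM.

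Over the 662 genes at 200 CPM or more, the low-UMI ranges differed in what they resembled. The median absolute log2 difference from barcodes of 100 to under 300 UMIs was 0.0939 at 650 to 799 UMIs, 0.153 at 800 to under 1000, 0.287 at 1000 to 1499 and 0.293 at 1500 to 2109. From called cells it was 0.185, 0.203, 0.230 and 0.214 over the same ranges. Barcodes under 1000 UMIs gave 41 genes higher (1.31%) and 23 lower (0.735%) than free RNA, and 13 higher (0.415%) and 12 lower (0.383%) than called cells. Barcodes of 1000 UMIs or more gave 129 higher (3.96%) and 51 lower (1.57%) than free RNA, and 28 higher (0.868%) and 29 lower (0.9%) than called cells. In the median difference the barcodes under 1000 UMIs were nearer to the 100 to under 300 UMI barcodes, and those from 1000 UMIs were nearer to called cells. The ranges hold different numbers of UMIs, between 158180 and 507192, so counting error differs between these values. Thinned to 500 UMIs each, barcodes of 500 to under 650 UMIs had a median of 360 genes, those of 650 to under 1000 had 358, those of 1000 to 2109 had 347 and called cells had 349; unthinned medians were 388, 480, 870.5 and 2183.

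A second distinct cluster was marked by mitochondrial transcripts. It had 113 barcodes with a median of 1073 UMIs, and mitochondrial genes made up a median of 20.03% of their UMIs. Over all low-UMI barcodes, 109 (9.92%, exact interval 8.21 to 11.8) had more than 10% mitochondrial UMIs, against 13 of 10883 called cells (0.119%) and 254 of 81543 barcodes of 100 to under 650 UMIs (0.311%). Thinned to 500 UMIs each, the shares were 109 of 1099 (9.92%) in low-UMI barcodes and 12 of 10883 (0.110%) in called cells. By range the unthinned share was 5.64% at 650 to 799 UMIs, 13.3% at 800 to under 1000, 23.6% at 1000 to 1499, 5.80% at 1500 to 2109 and 1.48% at 2110 to under 3000.

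The mitochondrial cluster also differed in nuclear genes, which are given as a description. Malat1 had 54008 CPM in it against 15999 CPM in called cells, and Gapdh, a cytosolic glycolytic enzyme, had 401 CPM against 843 CPM in called cells. The glycolysis list had 2407 CPM against 3512 CPM in called cells, and the immediate early list had 3680 CPM against 6931 CPM in called cells. Stem cell genes were present, with Hlf at 401 CPM (300 to 526) against 269 CPM in called cells, Mecom at 324 CPM against 96.0 CPM in called cells and Kit at 255 CPM against 100.5 CPM in called cells. In called cells of 2110 to under 3000 UMIs Hlf had 478 CPM, so the cluster was not raised over those cells for Hlf. Malat1 (23515 CPM), Gapdh (603 CPM), Mecom (152 CPM), Kit (157 CPM) and the glycolysis list (2816 CPM) were nearer to the cluster there. The immediate early list (8805 CPM) was further from it. Part of the difference from all called cells was shared by the 363 barcodes of 1000 UMIs or more outside the sets described. These had Gapdh at 506 CPM, the glycolysis list at 2832 CPM and Hlf at 521 CPM. Malat1 (24741 CPM), Mecom (152 CPM) and Kit (142 CPM) were less raised in them, and the immediate early list (7996 CPM) was not lower. A high share of mitochondrial RNA is widely used as a mark of damaged cells, and the state of the cells in these droplets was not measured.

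The remaining barcodes fell to either side of 1000 UMIs. In the 590 below it Malat1 had 22497 CPM, Gapdh 766 CPM, Mpo 133 CPM and Hlf 282 CPM, against 22104, 802, 114 and 274 CPM in barcodes of 100 to under 650 UMIs. In the 363 at or above it, Hlf had 521 CPM, Mpo 58.3 CPM (40.6 to 81.0) and Mki67, a proliferation marker, 56.6 CPM (39.2 to 79.1). All called cells had 269, 102 and 98.5 CPM of these genes. Called cells of 2110 to under 3000 UMIs had Hlf at 478 CPM, Mpo at 32.9 CPM (25.3 to 42.1) and Mki67 at 29.3 CPM (22.1 to 38.0). Mpo and Mki67 in the 363 barcodes were lower than in all called cells but higher than in called cells nearest in UMI number. For Mpo the intervals of the latter comparison overlapped. The median mitochondrial share of the 363 barcodes was 3.20%.

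**Figure D5:**
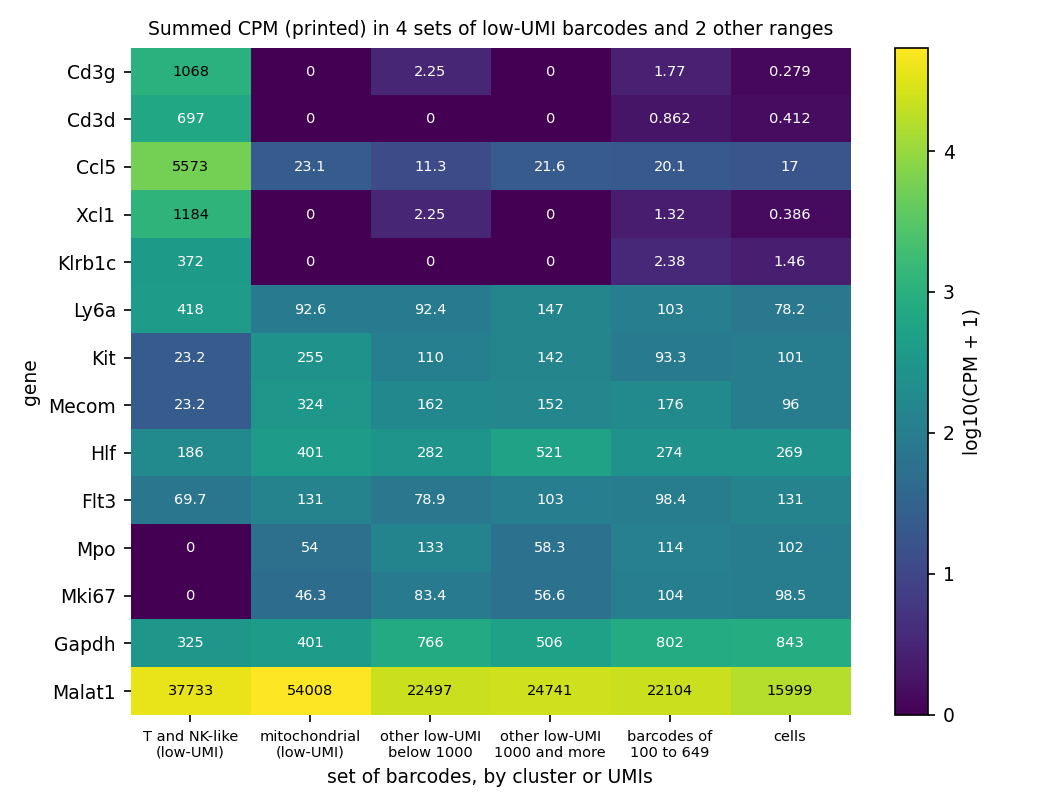
Heat map of the CPM of selected genes (printed, with color on a log scale) in the sets of low-UMI barcodes, beside barcodes of 100 to under 650 UMIs and called cells. Cd3g reaches 1068 CPM in the T and NK-like cluster, and Malat1 reaches 54008 CPM in the mitochondrial cluster.

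In the other libraries of the series, which hold filtered barcodes only, each gate has 1 library, and its levels of Hbb-bs and S100a8 are given as values. Hbb-bs had 136 CPM in the CMP, 17.0 CPM in the GMP and 61.7 CPM in the MEP library, and S100a8 had 190 CPM in the CMP, 566 CPM in the GMP and 2.58 CPM in the MEP library. A single GMP barcode held 1141 of the 1246 Hbb-bs UMIs of that library. Barcodes under the cell calls of those libraries were not analysed here, so whether they hold low-UMI barcodes of the same kind could not be compared.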

How the data were processed

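Per the labels' protocols, sorted cells were profiled with a 10x Genomics 3' kit. The deposited matrices hold raw whole-number UMI counts for each gene in each barcode. Names found in the submitters' processing notes are the mm10 build, Seurat 2.3.0, CASAVA 1.8.2 and Cell Ranger 2.0.0. The LSK matrix lists 737280 barcodes and 27998 genes without a cell filter, and the other matrices only filtered barcodes. The 2 CMP samples had identical values and were counted as 1.

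Counts were summed over the barcodes of a UMI range and scaled to CPM with Python 3.11.15, numpy 2.4.6 and scipy 1.17.1. A call needed 50 CPM and 3 counts on the higher side and a 2-fold ratio, with exact conditional binomial intervals for ratios, exact Poisson intervals for levels and Clopper-Pearson intervals for shares. In ratios a count under 3 was set to 3. Scripts were tested on simulated data. The low-UMI barcodes were clustered alone with scanpy 1.11.5 (1000 variable genes, resolution 1). No doublet caller was run. TMM factors came from edgeR 4.0.16, as an alternative scaling. Positions were taken from GENCODE M21, which holds 27645 of the gene IDs.

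The low-UMI range and the 24 gene lists (251 of 261 members measured) were chosen with earlier results of these data known. Named genes were, per comparison and direction, the 12 of largest ratio (leaving out predicted, ribosomal protein and mitochondrial genes), with Hbb-bs, S100a8 and 4 per list; genes of single barcodes and of clusters, and the genes set beside UMI ranges, were picked after their values were seen. The 10% mark for neutrophil and red cell barcodes, the sets left out and the free RNA ranges from 100 UMIs were also chosen after the data were seen. Nsd1, Igf1r, Ktn1 and Cul5 were named for ranking next after the 12 over free RNA.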

Additional observations from a re-analysis of the deposited data

How the results depend on the processing

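The genes higher than free RNA, 56 by the main rule, numbered 557 with a minimum of 10 CPM, 889 with 3 counts alone, 26 with TMM factors, 28 with median-of-ratios factors, 129 for low-UMI barcodes of 1000 UMIs or more, and 184, 22 and 20 against free RNA of 10 to 99, 100 to under 300 and 100 to under 650 UMIs. TMM and median-of-ratios factors moved all log2 ratios over free RNA by -0.15 and -0.12, and over called cells by -0.12 each. The genes lower than free RNA, 18, numbered 123, 287, 51, 149, 3 and 3 for the same settings without the factors. The genes higher than called cells, 14, numbered 139 with 10 CPM, 642 with 3 counts alone, 28 from 1000 UMIs, 8 with globins, S100a8 and S100a9 out of the totals (which takes them out of the genes tested), 5 without the 1% of barcodes leading the neutrophil or red cell list, 6 without the 2 neutrophil barcodes and the red cell barcode, and 3 without these and the T and NK-like cluster. The genes lower than called cells, 2, numbered 51, 126, 7 with TMM, 7 with median-of-ratios factors, 12 under 1000 UMIs, 29 from 1000 UMIs, 4 by the mean of per-barcode CPM, and 1 without the T and NK-like cluster or without both sets. The 13 clusters became 4 at resolution 0.5 and 28 at resolution 2, while the T and NK-like cluster had 28 to 30 barcodes and the mitochondrial cluster 109 to 128, of which at least 94 were among its 113.

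Over free RNA, log2 ratios turned round as follows: S100a8 to -0.35 under 1000 UMIs, -0.60 without the leading 1%, -0.45 without the 3 barcodes and -0.45 without both sets; Camp to -1.03, -1.05 and -0.998 and Ngp to -0.029, -0.0495 and -0.26 in the last 3 of these; Hbb-bt to -0.0932 under 1000 UMIs and -0.063 without the leading 1%; and, without the leading 1%, S100a9 to -0.29, Hbb-bs to -1.03 and Hba-a1 to -0.29. Ndufaf5 turned to 0.10 and 0.13 and Znhit2 to 0.017 and 0.038 against free RNA of 100 to under 300 and 100 to under 650 UMIs. The median of the neutrophil list turned to -0.029 and -0.0495 without the leading 1% and the 3 barcodes, and that of the T and NK list to -0.00210 without its cluster. Over called cells, S100a8 turned to -0.15, -0.00169 and -0.00219 and Camp to -1.03, -1.05 and -0.999 without the leading 1%, the 3 barcodes and both sets, and Hbb-bt to -0.23, -0.0925 and -0.041, to -0.26 under 1000 UMIs and to -0.11 without barcodes found in other matrices. Beyond the barcodes left out, the cause was not tested. No paired analysis was possible because each gate has 1 library. Depth limits free RNA most, where 3 counts stand for 2.55 CPM, against 2.46 CPM in low-UMI barcodes and 0.0399 CPM in called cells.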
